A study of Mus musculus with 12 samples.

Results

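The subject is MHC class II antigen presentation and T cell costimulation in mouse macrophages, read from 10 genes of a count table of 24421 gene symbols. The genes were taken by symbol with no cut on their values, but with earlier results of these data known. They were the class II chains H2-Aa, H2-Ab1 and H2-Eb1, the invariant chain Cd74, and the peptide exchange factor subunits H2-DMa and H2-DMb1. Also taken were the class II transactivator Ciita, the costimulatory ligands Cd80 and Cd86, and the maturation marker Cd83. All 10 were in the table, and 9 passed the filter on low counts; Ciita did not and is described by its counts.

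The cells were bone marrow-derived macrophages (BMDMs) of wild-type C57BL/6 mice, grown for 5 days in 100 ng/mL M-CSF with a medium change on day 3. I-BET151 (iBET) is a small molecule that keeps the BET proteins from binding acetylated histones. BMDMs received 5.0 µM iBET or the solvent DMSO, and either ovalbumin alone (Ova) or ovalbumin bound by IgG in an immune complex (IC), for 4 h. Each of the 4 combinations of drug and stimulus had 3 libraries, 12 in all, and every combination holds 1 library from each of 3 mice, here called A, B and C. The labels have drug and stimulus added together, whereas the study's methods give the drug earlier, and which of these holds is not settled here. The labels state that cells were sorted before lysis and name no gate.

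Total counts ran from 7549849 to 17387639 per library. The DMSO Ova library of mouse A stood apart, because 77.4% of its counts came from the ribosomal RNA precursor Rn45s against 1.41 to 7.83% in the other 11 libraries. That left it shallow for all other genes, so that 1 count there equals 0.514 CPM (counts per 1000000, scaled by the TMM method) against 0.0534 to 0.120 CPM elsewhere. Macrophage markers were abundant: the summed level of the 13 listed ran from 7643 to 10756 CPM. The 12 dendritic cell markers summed to 9.36 to 32.7 CPM, the 7 neutrophil markers in the table to 7.70 to 50.7 CPM and the 8 B cell markers to 2.13 to 5.39 CPM, with Pax5 and Cr2 at 0 counts in every library. In bulk RNA, fewer cells of a type and less RNA per cell cannot be told apart.

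As background, class II molecules carry peptides of swallowed antigen to the surface for CD4+ T cells. The α and β chains assemble with the invariant chain, which blocks the groove until proteases trim it away, and H2-DM, a heterodimer, swaps the remaining fragment for antigen peptide. T cells also need a second signal, given by CD80 and CD86 through CD28. The class II genes share a promoter module, with an X box bound by the RFX complex and CREB and a Y box (an inverted CCAAT, read as ATTGG) bound by NF-Y; CIITA binds no DNA itself and is recruited to this assembly.

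Of the 10 genes, 5 had promoter windows in the RefSeq table (GRCm38.p6; 250 bases before to 50 after a start; 6 windows): H2-Aa, H2-Eb1, H2-DMa, H2-DMb1 and Cd80. ATTGG, searched on both strands, was found in the windows of H2-Aa, H2-Eb1 and H2-DMb1 and in 1 of the 2 of H2-DMa, and 37.4% of all 32851 windows hold it. The X box core CCTAGNNAC was found only in the H2-DMb1 window, and 3.91% of all windows hold it. After the sequences had been seen, GNAACT followed by GATTGG on the same strand, their first bases 20 to 40 apart, was searched too, with GATTGG containing the ATTGG above. This pair was found in the windows of H2-Aa, H2-Eb1 and H2-DMb1, with first bases 32, 31 and 32 apart, and 0.317% of all windows hold it. Because the pair was chosen with these windows in view, finding it in them is no test, and its share of all windows does not measure rarity. In 1 of the 2 H2-DMa windows GNAACT and GATTGG were also found on the gene's strand, but not in that order and spacing. The stretches with the pair are shown for these 3 genes. Capitals mark GNAACT and GATTGG, and each stretch is written 5′ to 3′ on the strand of its gene.
H2-Aa (chr17:34287857-34287914, minus strand): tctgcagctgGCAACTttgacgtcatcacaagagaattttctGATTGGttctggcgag
H2-Eb1 (chr17:34305766-34305822, plus strand): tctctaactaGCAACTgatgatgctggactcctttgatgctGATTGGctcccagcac
H2-DMb1 (chr17:34153087-34153144, plus strand): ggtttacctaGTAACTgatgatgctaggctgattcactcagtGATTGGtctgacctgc
A match describes these letters only and is no evidence of binding.

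Under iBET, the costimulatory ligands Cd80 and Cd86 fell and no tested class II gene was called. With Ova, 3 of the 9 tested genes fell and 0 rose; across all 11468 genes tested, 31.3% were called, 14.2% lower and 17.1% higher. With IC, 2 of 9 fell and 0 rose, against 34.8% called of all genes, 15.8% lower and 19.0% higher. The share called among the 9 was thus near that of all genes with Ova and below it with IC, and the counts are no result about the set. Cd80 and Cd86 fell in both and Cd83 with Ova, whereas the 6 tested class II genes had fitted log2 changes of -0.30 to 0.25 with Ova and -0.38 to 0.47 with IC, with adjusted p from 0.0822 to 0.912. Calls are adjusted p under 0.05 in edgeR's quasi-likelihood test, Benjamini-Hochberg adjusted over all genes tested, with 3 mice per group. Changes are log2 fold changes with the standard error (SE).

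**Figure D1:**
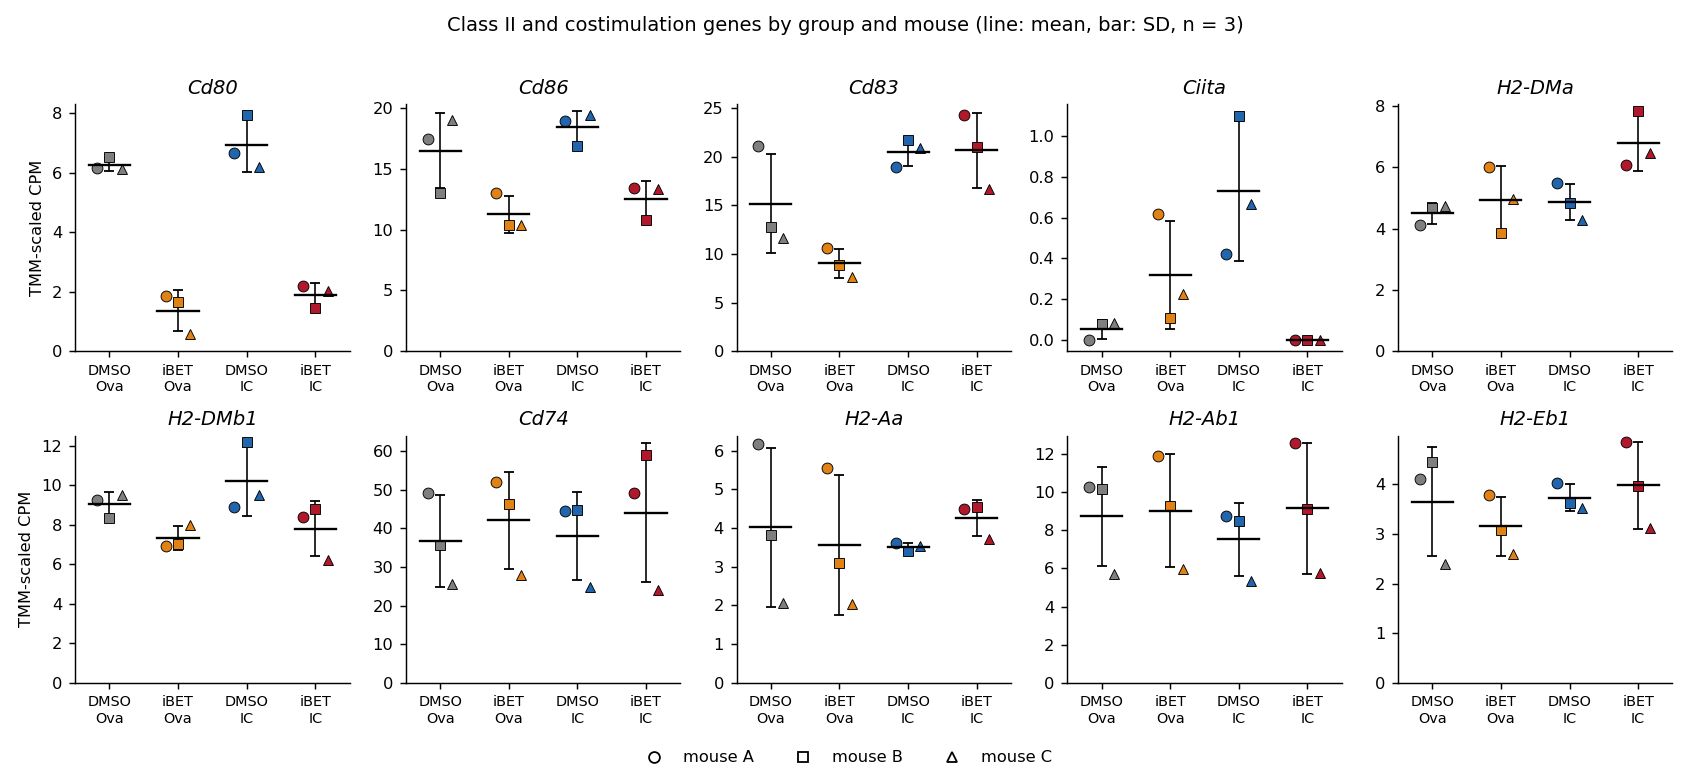
TMM-scaled CPM (linear axis, 1 panel per gene) of the 10 genes in each of the 12 libraries, by group, with symbols for mice A, B and C, a line at the mean and a bar for the SD (n = 3). Cd80 lies at 6.13 to 7.92 CPM in the 6 DMSO libraries and at 0.564 to 2.19 CPM in the 6 iBET libraries, and in the panels of H2-Aa, H2-Ab1, H2-Eb1 and Cd74 mouse C is the lowest point in most groups.

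Cd80 (B7-1; 16:38455561-38496335 in GRCm38, plus strand) is the ligand with the higher affinity for CD28 and CTLA-4. It was at 6.16, 6.52 and 6.13 CPM in the DMSO Ova libraries of mice A, B and C, and at 1.85, 1.65 and 0.564 CPM in their iBET Ova libraries. With IC it was at 6.65, 7.92 and 6.20 CPM in DMSO and at 2.19, 1.45 and 2.04 CPM in iBET. The lowest DMSO library was thus above the highest iBET library, with no overlap in either stimulation. With Ova, 3 of the 9 genes did not overlap (Cd80, Cd83 and H2-DMb1) against 45.1% of all genes tested, and with IC 5 did not (Cd80, Cd86, H2-Aa, H2-DMa and H2-DMb1) against 48.6%. Cd80 fell 4.48-fold with Ova (log2 change -2.16, SE 0.32, edgeR adjusted p 0.000298) and 3.59-fold with IC (-1.84, SE 0.29, edgeR adjusted p 0.000427), lower in 3 of 3 mice each time. These are small counts, from 5 to 24 per iBET Ova library. It was called in all 23 alternative fits that tested it in each stimulation, and with the shallow mouse A library left out the change with Ova was -2.22 (edgeR adjusted p 0.000434).

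Dendritic cells carry more CD80, CD86 and CD83 than macrophages, so their markers stand beside these results. The 12 dendritic cell markers summed to 20.1 to 32.7 CPM in DMSO and 9.36 to 23.4 CPM in iBET with Ova, and to 17.8 to 29.6 CPM in DMSO and 12.3 to 26.1 CPM in iBET with IC. Of the 3 tested, Cd207 fell under iBET in both stimulations and Zbtb46 rose with Ova, and both are named after their values had been seen. Of the 13 macrophage markers 2 rose with Ova and 3 with IC, and 0 fell. By edgeR, 0 of the 2 tested B cell and 0 of the 4 tested neutrophil markers were called. For scale, iBET raised 17.1% of the full tested set with Ova and lowered 14.2%. The matching shares with IC were 19.0% and 15.8%. Whether the marker lists depart from these shares was not tested. The part of dendritic cells in the fall of the ligands was not tested.

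Cd86 (B7-2; 16:36603869-36666081, minus strand), the ligand that resting myeloid cells usually carry in larger amount, fell less. Its levels with Ova were 17.5, 13.03 and 19.0 CPM in DMSO against 13.04, 10.4 and 10.4 CPM in iBET. With IC they were 18.9, 16.8 and 19.4 CPM in DMSO against 13.4, 10.8 and 13.3 CPM in iBET. Every mouse was lower under iBET in both stimulations, but with Ova the groups just overlapped, because mouse B in DMSO was level with mouse A in iBET. The fitted changes were -0.53 (SE 0.18, edgeR adjusted p 0.0366) with Ova and -0.56 (SE 0.17, edgeR adjusted p 0.0223) with IC, or 1.45-fold and 1.47-fold lower.

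The Cd86 calls were lost in some alternatives. With Ova the call was lost without mouse C of DMSO Ova (-0.38, edgeR adjusted p 0.184), without mouse B of iBET Ova (-0.47, adjusted p 0.116) or without mouse C of iBET Ova (-0.47, adjusted p 0.106). It was also lost with only the compared groups fitted (-0.58, adjusted p 0.0577) and with no filter on low counts (-0.53, adjusted p 0.0523), where the change was as large. With IC it was lost without mouse C of DMSO IC (-0.52, adjusted p 0.0630) or without mouse B of iBET IC (-0.46, adjusted p 0.0917). Leaving out every library of mouse B or of mouse C lost it too, with Ova (-0.64, adjusted p 0.0762, and -0.32, adjusted p 0.389) and with IC (-0.52, adjusted p 0.104, and -0.56, adjusted p 0.107).

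Cd83 (13:43784775-43803132, plus strand) encodes a surface protein of mature dendritic cells and activated lymphocytes that is known to keep class II and CD86 at the cell surface. Its levels with Ova were 21.1, 12.8 and 11.7 CPM in DMSO and 10.6, 8.82 and 7.67 CPM in iBET, with no overlap. With IC they were 18.9, 21.7 and 20.9 CPM in DMSO and 24.3, 21.03 and 16.7 CPM in iBET, which overlapped. Under iBET, Cd83 thus fell with Ova (-0.65, SE 0.22, edgeR adjusted p 0.0421) and was not called with IC (0.02, 95% interval -0.42 to 0.46, edgeR adjusted p 0.951).

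The Cd83 call with Ova was lost in several of the fits that left out libraries. Without the shallow DMSO Ova library of mouse A, whose 21.1 CPM rest on 41 counts, the change was -0.48 (edgeR adjusted p 0.0723), but with every library of mouse A left out the gene was called (-0.60, edgeR adjusted p 0.0224). The call was also lost without mouse B of DMSO Ova (-0.75, adjusted p 0.0567), without mouse B (-0.64, adjusted p 0.104) or C (-0.55, adjusted p 0.128) of iBET Ova, without mouse B (-0.65, adjusted p 0.0534) or C (-0.65, adjusted p 0.0537) of DMSO IC, without mouse B of iBET IC (-0.65, adjusted p 0.0571) and with only the compared groups fitted (-0.69, adjusted p 0.0632). Leaving out all of mouse B (-0.75, adjusted p 0.196) or all of mouse C (-0.70, adjusted p 0.101) lost it as well. It was called in 14 of 24 alternatives, with adjusted p from 0.00395 to 0.196.

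The response to IC itself reached the threshold for 1 of the 9 tested genes, and of the 2 arms only under iBET. In DMSO-treated BMDMs, 0 of the 9 tested genes were called in edgeR, 1 had an unadjusted p under 0.05 (Cd83) and DESeq2 called 0, while 1.22% of all genes were called (140 genes, or 315 with mouse as a block). In iBET-treated BMDMs, 1 of 9 was called, Cd83, against 0.349% of all genes (40 genes, or 85 with mouse as a block). Cd83 was 2.29-fold higher with IC than with Ova under iBET (1.20, SE 0.21, edgeR adjusted p 0.0313), and the log2 differences of mice A, B and C were 1.19, 1.24 and 1.10. In DMSO the same comparison gave 0.52 (SE 0.22, edgeR adjusted p 0.357), with differences of -0.15, 0.75 and 0.83. The negative difference was that of mouse A, whose DMSO Ova library is the shallow one.

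The difference between the 2 IC responses of Cd83 did not pass its own test (interaction 0.67, SE 0.30, unadjusted p 0.0456, edgeR adjusted p 1.00). The call under iBET was lost without mouse A (1.33, adjusted p 0.0798), B (1.18, adjusted p 0.207) or C (1.09, adjusted p 0.155) of iBET Ova, without mouse A (1.06, adjusted p 0.193) or B (1.19, adjusted p 0.142) of iBET IC, and without mouse B of DMSO Ova (1.20, adjusted p 0.0546) or of DMSO IC (1.20, adjusted p 0.0578), as well as without all of mouse B (1.17, adjusted p 1.00) or of mouse C (1.22, adjusted p 0.250). With every library of mouse A left out, the IC response in DMSO became 0.80 (edgeR adjusted p 0.0399) and was called. Without only the shallow DMSO Ova library of mouse A it was 0.72 (edgeR adjusted p 0.105) and was not called. The Cd83 interaction was 0.48 (edgeR adjusted p 0.895) without that library and 0.42 (edgeR adjusted p 0.869) without all of mouse A. Over the 9 tested genes the interaction gave 0 calls in edgeR and in DESeq2, with 1 gene at an unadjusted p under 0.05, and 0% of all genes were called by edgeR, where 292 had an unadjusted p under 0.05; DESeq2 called 4.

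**Figure D2:**
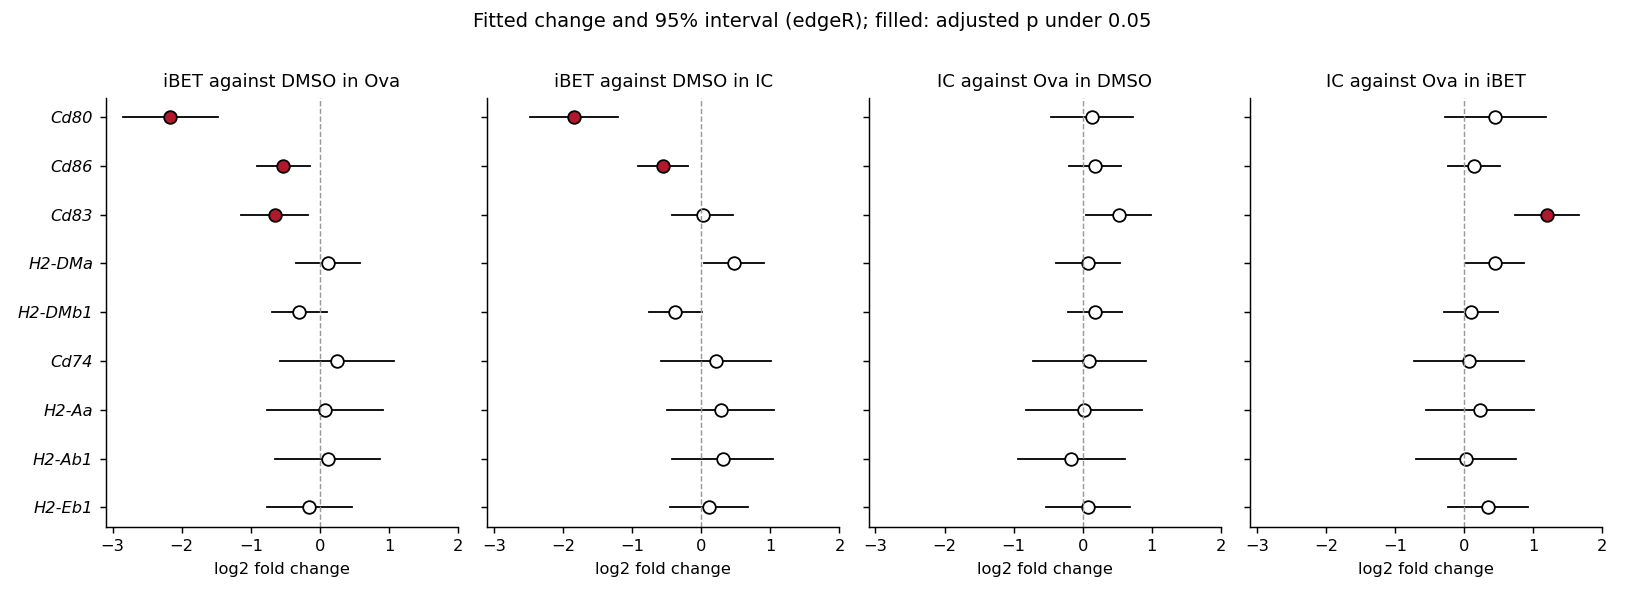
Fitted log2 fold change (x axis) of the 9 tested genes in 4 comparisons, with 95% intervals as lines and filled points where the adjusted p is under 0.05. Cd80 and Cd86 are filled in both iBET comparisons, Cd83 in iBET against DMSO with Ova and in IC against Ova under iBET, and the intervals of the class II chains and Cd74 cross 0 in all 4 panels.

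The class II α and β chains were low and were not called in any comparison. H2-Ab1, the β chain of I-A, averaged 8.73 ± 2.61 CPM in DMSO and 9.04 ± 2.96 CPM in iBET with Ova, and 7.52 ± 1.90 CPM in DMSO and 9.15 ± 3.42 CPM in iBET with IC (SD, n = 3). H2-Aa, its α chain, was at 4.02 ± 2.05, 3.56 ± 1.81, 3.52 ± 0.104 and 4.25 ± 0.465 CPM in the same order (SD, n = 3). H2-Eb1, the β chain of I-E, was at 3.65 ± 1.10, 3.15 ± 0.596, 3.73 ± 0.271 and 3.98 ± 0.870 CPM (SD, n = 3). C57BL/6 mice lack I-E at the surface because their H2-Ea gene is defective, and its row, H2-Ea-ps, was at 0 counts in every library.

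None of these 3 chains was called under iBET by edgeR. For H2-Ab1 the change was 0.11 with Ova (95% interval -0.65 to 0.88) and 0.31 with IC (-0.42 to 1.04). For H2-Eb1 it was -0.15 with Ova (-0.77 to 0.46) and 0.11 with IC (-0.45 to 0.68). For H2-Aa it was 0.07 with Ova (-0.77 to 0.91) and 0.28 with IC (-0.50 to 1.06). The intervals are wide and contain 0 in each case. They come from the fit with no term for mouse.

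The sign for H2-Aa with Ova was not settled. Its levels there were 6.16, 3.83 and 2.07 CPM in DMSO and 5.56, 3.09 and 2.03 CPM in iBET, lower under iBET within each mouse, and with mouse as a block the fitted change was -0.02. With IC they were 3.62, 3.41 and 3.53 CPM in DMSO and 4.48, 4.55 and 3.72 CPM in iBET, higher under iBET within each mouse and without overlap. The interaction for H2-Aa was 0.21 (SE 0.53, edgeR adjusted p 1.00).

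Cd74, the invariant chain, had the highest level per length of the 10 genes. With Ova its mean was 36.8 ± 11.9 CPM in DMSO and 42.1 ± 12.7 CPM in iBET, and with IC 38.0 ± 11.4 CPM in DMSO and 44.0 ± 18.04 CPM in iBET (SD, n = 3). The iBET change was 0.25 with Ova (95% interval -0.58 to 1.07, edgeR adjusted p 0.657) and 0.22 with IC (-0.58 to 1.01, edgeR adjusted p 0.676).

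Per kilobase of exon, the median over the 12 libraries was 26.6 CPM for Cd74 (range 14.3 to 35.1), 6.92 for Cd83, 5.12 for H2-DMb1, 3.65 for Cd86, 3.48 for H2-Ab1, 1.91 for H2-Eb1, 1.42 for H2-DMa, 1.12 for Cd80, 0.966 for H2-Aa and 0.0101 for Ciita. The Cd74 range lay wholly above that of Cd83 (2.98 to 9.46), and that of Ciita (0 to 0.115) wholly below that of H2-Aa (0.535 to 1.62). Between these ends each gene's range overlapped that of its neighbours in the order. Genes further apart could be told apart: the ranges of Cd83, H2-DMb1 and Cd86 (2.83 to 5.31) lay above those of H2-Eb1 (1.24 to 2.50), H2-DMa, Cd80 and H2-Aa.

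Among the peptide exchange subunits, H2-DMb1 was lower under iBET in both stimulations and H2-DMa was higher with IC, with no call. H2-DMb1 (17:34153072-34160230, plus strand) was at 9.25, 8.36 and 9.53 CPM in DMSO Ova and 6.95, 7.06 and 8.01 CPM in iBET Ova. With IC it was at 8.92, 12.2 and 9.53 CPM in DMSO and 8.38, 8.82 and 6.23 CPM in iBET. All 3 mice were lower under iBET in each stimulation and the groups did not overlap, but the changes of -0.30 (SE 0.19, edgeR adjusted p 0.250) and -0.38 (SE 0.18, edgeR adjusted p 0.119) did not pass the threshold. Its near-identical neighbour H2-DMb2 may share reads with it, so the split of counts between these genes is uncertain.

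H2-DMa (17:34119541-34139101, plus strand) was at 4.11, 4.68 and 4.73 CPM in DMSO Ova and 6.02, 3.86 and 4.96 CPM in iBET Ova, which overlapped. With IC it was at 5.47, 4.84 and 4.29 CPM in DMSO and 6.08, 7.85 and 6.47 CPM in iBET, which did not. The changes were 0.12 (SE 0.21, edgeR adjusted p 0.722) with Ova and 0.47 (SE 0.20, edgeR adjusted p 0.0822) with IC. Under iBET it was also higher with IC than with Ova without overlap (0.44, SE 0.20, edgeR adjusted p 0.645), as was Cd83, so 2 of the 9 genes did not overlap there against 18.9% of all genes; in DMSO 0 of 9 did not overlap against 15.3%.

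H2-DMa has to be read beside Brd2, the BET protein gene that faces it. Their annotated exons share 360 bases on opposite strands, and their RefSeq starts, at 17:34122832 for H2-DMa and 17:34122607 for Brd2, are 225 bases apart and point away from each other. The strand setting of the counting was not given in the sources used here, so reads from the shared bases cannot be assigned with certainty. Brd2 rose from a mean of 297 to 1707 CPM with Ova (2.53, SE 0.13, edgeR adjusted p 1.96e-07) and from 242 to 1705 CPM with IC (2.82, SE 0.13, edgeR adjusted p 8.12e-08).

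Counts of H2-DMa did not keep pace with those of Brd2. Per 1000 Brd2 counts there were 15.6 ± 3.67 H2-DMa counts in DMSO Ova and 2.90 ± 0.645 in iBET Ova, and 20.1 ± 0.754 in DMSO IC and 3.99 ± 0.556 in iBET IC (SD, n = 3). Set against its partner, H2-DMa had 0.396 to 0.613 counts per H2-DMb1 count in the 6 DMSO libraries and 0.547 to 1.04 in the 6 iBET libraries. Only 360 of the 7826 exonic bases of Brd2 are shared, so the ratio to Brd2 describes the counts only. Whether reads from Brd2 are part of the H2-DMa counts was not tested.

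**Figure D3:**
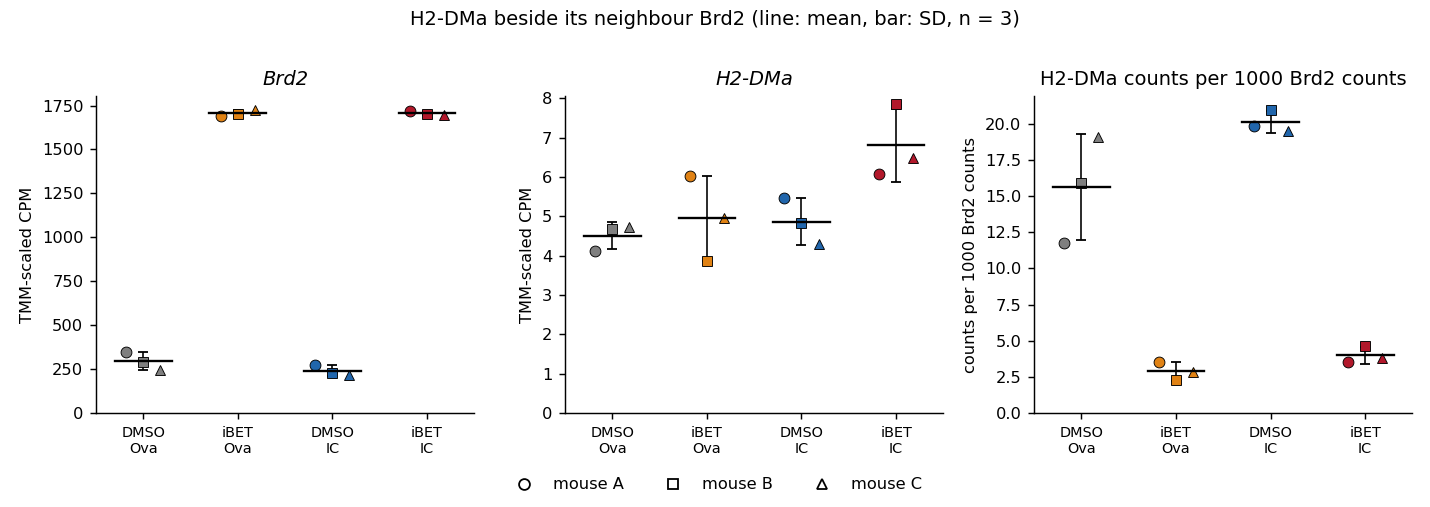
TMM-scaled CPM of Brd2 (left) and of H2-DMa (middle), and H2-DMa counts per 1000 Brd2 counts (right), by group, with symbols for mice A, B and C, a line at the mean and a bar for the SD (n = 3). Brd2 rises to about 1707 CPM under iBET while H2-DMa stays between 3.86 and 7.85 CPM, so their ratio falls in both stimulations.

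Ciita (16:10480059-10528418, plus strand), the switch for class II transcription, was near the limit of detection. Its raw counts in mice A, B and C were 0, 1 and 1 in DMSO Ova, 8, 1 and 2 in iBET Ova, 5, 10 and 7 in DMSO IC and 0, 0 and 0 in iBET IC. All 22 counts with IC thus came from DMSO libraries. Pooled over mice, the level was 0.0739 CPM in DMSO Ova (95% exact Poisson interval 0.00895 to 0.267), 0.356 in iBET Ova (0.178 to 0.637), 0.699 in DMSO IC (0.438 to 1.06) and 0 in iBET IC. A total of 3 counts over the group allows up to 0.0802 CPM in iBET IC; these intervals and floors cover counting error only.

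With iBET IC set at that floor, pooled Ciita was 8.72-fold higher in DMSO IC. The lower Poisson limit of DMSO IC was 4.44-fold above the upper limit of iBET IC. These limits pool the mice and leave out the spread between them, so the ratio is no lower bound on the difference between groups. In an edgeR fit of all 16759 genes with at least 1 count, added after the counts had been seen, the iBET difference with IC was called (edgeR adjusted p 0.00226), as it was for 22.3% of the genes in that fit. The iBET difference with Ova (edgeR adjusted p 0.211; 19.8% of genes called), the IC response in DMSO (edgeR adjusted p 0.242; 0.794% called) and the IC response under iBET (edgeR adjusted p 0.298; 0.257% called) were not. An exact two-sided permutation test of the CPM gave p = 0.1 for each of the 4 comparisons, the smallest value that 3 against 3 libraries allow. The Ciita exons share 329 bases with Dexi on the opposite strand, and Dexi went the other way with IC, from 4.29, 3.19 and 1.91 CPM in DMSO to 5.87, 7.27 and 5.51 CPM in iBET (0.98, SE 0.35, edgeR adjusted p 0.0477). With Ova, Dexi was at 0.514, 3.83 and 2.57 CPM in DMSO and 6.71, 4.85 and 4.29 CPM in iBET. That change had the direction of pooled Ciita and was not called (0.91, SE 0.38, edgeR adjusted p 0.0840). Whether reads from Dexi are part of the Ciita counts was not tested.

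Some class II genes differed between the mice. With mouse as a term beside the group, a test added after the data had been seen, 2 of the 9 tested genes differed between mice, Cd74 and H2-Ab1, against 5.55% of all genes tested. H2-Ab1 averaged 10.9 CPM over the 4 libraries of mouse A, 9.26 in mouse B and 5.70 in mouse C (mouse C minus mouse A -0.95, edgeR adjusted p 0.00245). Cd74 averaged 48.8, 46.4 and 25.6 CPM (mouse C minus mouse A -0.91, edgeR adjusted p 0.000813). For H2-Ab1, Cd74 and H2-Eb1, mouse C was below the mean of its group in 4 of 4 groups, although H2-Eb1 (edgeR adjusted p 0.238) and H2-Aa (edgeR adjusted p 0.240) were not called.

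The exchange subunits did not share this pattern. H2-DMa averaged 5.42, 5.31 and 5.11 CPM in mice A, B and C (edgeR adjusted p 0.893) and H2-DMb1 averaged 8.37, 9.11 and 8.33 CPM (edgeR adjusted p 0.841). For Cd80 (edgeR adjusted p 0.689), Cd83 (0.295) and Cd86 (edgeR adjusted p 0.238) the mouse term was not called either.

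Markers of cell types also differed between the mice. Of the 13 macrophage markers 5 were called between mice, all 5 lower in C than in A, against 5.55% of all genes tested. The summed macrophage level overlapped between mice, at 7790 to 10756 CPM in A, 8569 to 10358 in B and 7643 to 9239 in C. Of the 3 tested dendritic cell markers 1 was called, lower in C. Of the 4 tested neutrophil markers all 4 were called and 0 were lower in C, and of the 2 tested B cell markers 0 were called. The summed neutrophil level was 7.70 to 15.4 CPM in mouse A, 18.4 to 42.5 CPM in mouse B and 41.2 to 50.7 CPM in mouse C. The summed dendritic cell level was 18.9 to 21.6, 23.4 to 32.7 and 9.36 to 20.1 CPM in the same order, with Ccr7 at 3 counts at most and Flt3 at 5 counts at most in any library. The part of these cells in the class II differences was not tested.

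**Figure D4:**
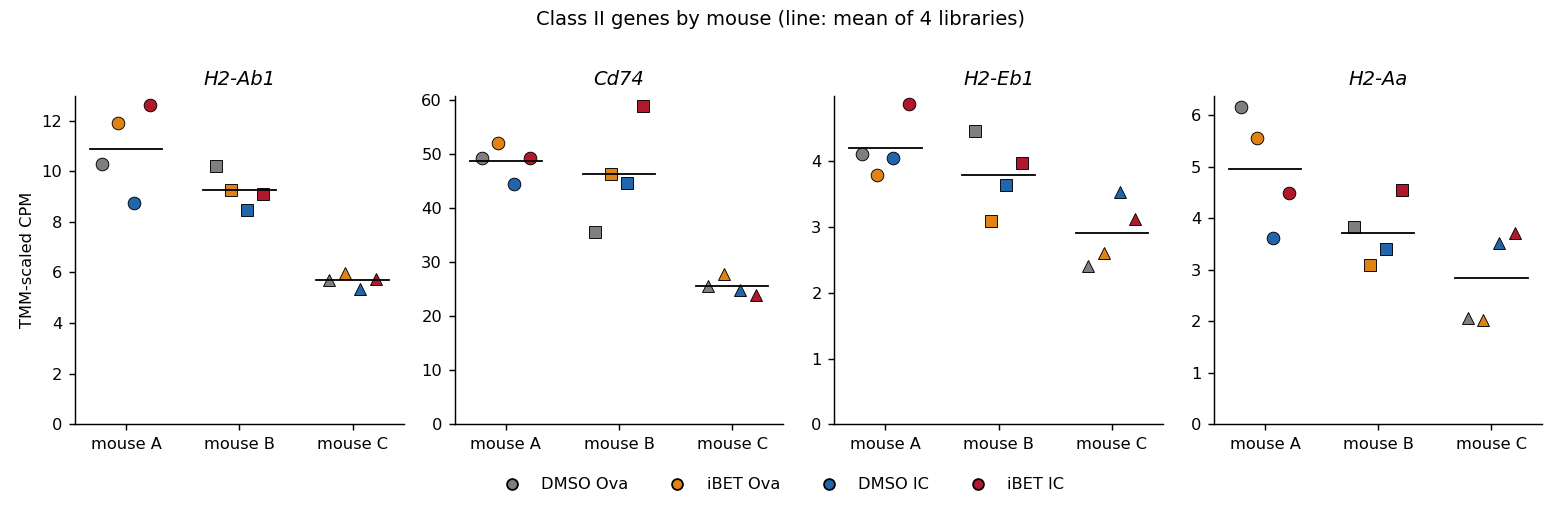
TMM-scaled CPM (linear axes) of H2-Ab1, Cd74, H2-Eb1 and H2-Aa by mouse, with colours for the 4 groups and a line at the mean of the mouse's 4 libraries. For H2-Ab1 and Cd74 every library of mouse C lies below every library of mice A and B, whatever the treatment, with means of 5.70 and 25.6 CPM.

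Over the 12 libraries, log2 CPM of H2-Ab1 and Cd74 had a Pearson r of 0.877, H2-Aa and H2-Eb1 of 0.798 and H2-Ab1 and H2-Eb1 of 0.764. After subtracting group means these were 0.894, 0.800 and 0.905, so the chains varied together within groups; the points share mice and libraries. Cd80 and Cd86 had r = 0.857 over the 12 libraries and 0.302 after subtracting group means.

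Among 9422 genes with a mean of at least 50 counts, the genes most like H2-Ab1 over the 12 libraries were Fabp5, a fatty acid-binding protein (r = 0.937), Plxdc2 (0.929) and Cd5l, a protein secreted by macrophages (0.923). Those most like Cd80 were Tifa, an adaptor of TRAF6 (0.983), Ldah, a lipid droplet hydrolase (0.978) and Cav2, a caveolin (0.977). For Cd86 they were Usp24 (0.925), Mrpl19 (0.920) and AA414768 (0.916), and for Cd83 Rassf4 (0.948), Kdm6b, a histone H3K27 demethylase (0.903), and Sgms1 (0.887). These are descriptions of 12 libraries that share mice and treatments.

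The other genes of the pathway were read from lists. Of 5 other class II genes, H2-Ea-ps, H2-Eb2, H2-DMb2, H2-Oa and H2-Ob, 1 was tested and 0 were called, and their summed level was at most 2.75 CPM.

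Of 18 genes of antigen processing and class II turnover, all tested, 4 rose and 1 fell under iBET in each stimulation, whereas 31.3% of all genes were called with Ova and 34.8% with IC. The median log2 change was 0.20 with Ova and 0.19 with IC, beside 0.02 and -0.0037 over all genes tested. The gene that fell was March1, the ubiquitin ligase that marks class II and CD86 for breakdown. It went from 16.7 to 3.79 CPM with Ova (-2.11, SE 0.29, edgeR adjusted p 0.00017) and from 8.83 to 2.54 CPM with IC (-1.74, SE 0.29, edgeR adjusted p 0.000648). An annotated antisense transcript, not a row of the table, shares 546 exonic bases with March1.

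Other genes of this list rose. Ifi30, the thiol reductase GILT that opens disulphide bonds of antigen, rose from 60.8 to 88.2 CPM with Ova (0.52, SE 0.11, edgeR adjusted p 0.00375) and from 62.1 to 76.7 CPM with IC (0.31, SE 0.11, edgeR adjusted p 0.0479). Ctsb, the protease cathepsin B, rose with Ova (0.50, SE 0.12, edgeR adjusted p 0.00746) and IC (0.48, SE 0.12, edgeR adjusted p 0.0081), and shares 774 exonic bases with Fdft1 on the opposite strand. March8, a relative of March1 with overlapping targets, rose with Ova (0.41, SE 0.11, edgeR adjusted p 0.0123) and IC (0.50, SE 0.11, edgeR adjusted p 0.00324).

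Of 18 transcription factors and regulators of class II genes, all tested, 6 rose and 5 fell with Ova, and 5 rose and 6 fell with IC. Of all genes, 17.1% rose and 14.2% fell with Ova, and 19.0% rose and 15.8% fell with IC. The medians of the list were 0.05 and -0.16, beside 0.02 and -0.0037 over all genes tested. Spi1, which encodes PU.1, the master factor of macrophages, fell from 192 to 66.0 CPM with Ova (-1.54, SE 0.12, edgeR adjusted p 2.34e-06) and from 241 to 71.7 CPM with IC (-1.75, SE 0.12, edgeR adjusted p 7.61e-07). Nfya, the subunit of NF-Y that contacts the CCAAT motif, rose from 134 to 242 CPM with Ova (0.85, SE 0.10, edgeR adjusted p 6.31e-05) and from 148 to 249 CPM with IC (0.75, SE 0.10, edgeR adjusted p 0.000136).

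Creb1 rose with Ova (0.62, SE 0.10, edgeR adjusted p 0.000445) and IC (0.58, SE 0.09, edgeR adjusted p 0.000522). Prdm1, which encodes BLIMP-1, a repressor of Ciita in plasma cells, fell with Ova (-1.84, SE 0.32, edgeR adjusted p 0.000869) and IC (-2.06, SE 0.28, edgeR adjusted p 0.000156). Rfx5, the X box-binding subunit, was chosen after its values had been seen and fell with Ova (-0.88, SE 0.23, edgeR adjusted p 0.0127; lower in 2 of 3 mice, with overlapping groups) and IC (-0.65, SE 0.22, edgeR adjusted p 0.0350). An antisense transcript, not a row of the table, shares 1471 exonic bases with Rfx5.

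Of 26 other costimulatory and coinhibitory ligands and receptors, 25 were in the table and 17 were tested; 3 rose and 9 fell with Ova, and 4 rose and 7 fell with IC. Over all genes the shares were 17.1% higher and 14.2% lower with Ova, and 19.0% higher and 15.8% lower with IC. The medians of the list were -0.70 and -0.51, beside 0.02 and -0.0037 over all genes tested. Havcr2 (TIM-3), an inhibitory receptor, fell from 120 to 30.1 CPM with Ova (-1.99, SE 0.09, edgeR adjusted p 1.14e-07) and from 109 to 28.9 CPM with IC (-1.91, SE 0.09, edgeR adjusted p 6.64e-08). Tnfsf14 (LIGHT), a costimulatory ligand of the TNF family, fell from 5.56 to 1.12 CPM with Ova (-2.32, SE 0.25, edgeR adjusted p 3.21e-05) and from 7.47 to 1.80 CPM with IC (-2.02, SE 0.22, edgeR adjusted p 3.21e-05).

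Cd274 (PD-L1), the ligand of PD-1, fell from 13.7 to 5.78 CPM with Ova (-1.21, SE 0.19, edgeR adjusted p 0.000584) and from 27.6 to 8.65 CPM with IC (-1.67, SE 0.18, edgeR adjusted p 2.75e-05). Cd48, a ligand of CD2 and CD244, fell with Ova (-1.06, SE 0.15, edgeR adjusted p 0.000234) and IC (-0.90, SE 0.15, edgeR adjusted p 0.000533). The 3 genes that rose with Ova were Icosl, the ligand of ICOS, Cd40, the receptor for CD40L, and Pvr, a ligand of TIGIT; they rose with IC too, with Tnfsf9, the ligand of 4-1BB, and are named after their values had been seen. Antisense transcripts that are no rows of the table share 511 exonic bases with Cd274 and 511 with Icam1.

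**Figure D5:**
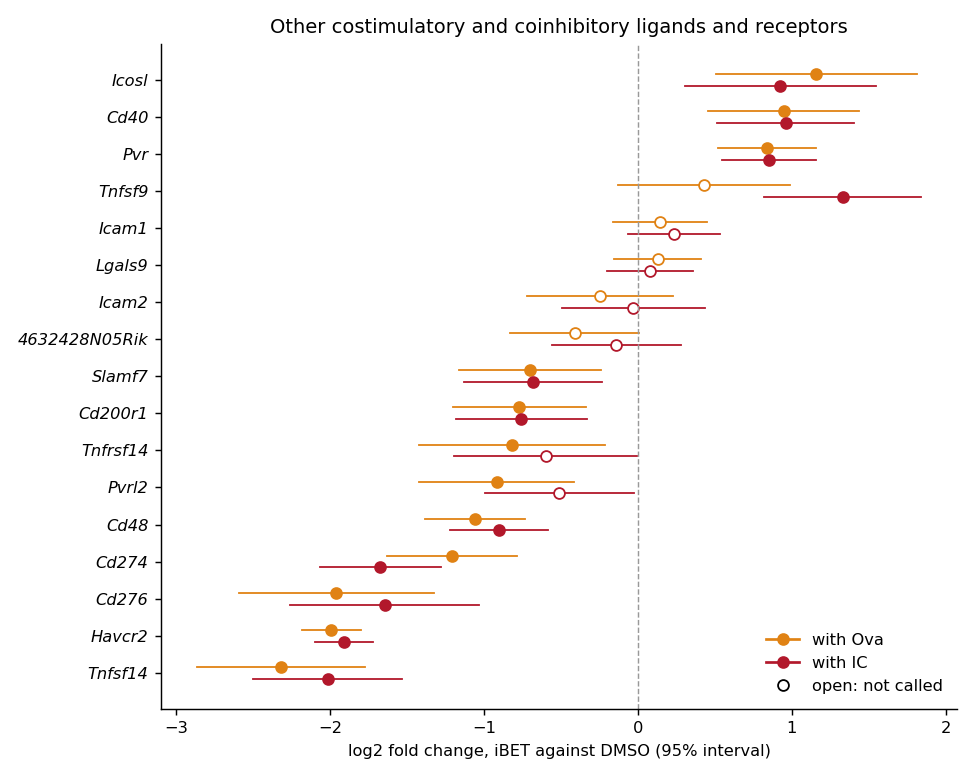
Fitted log2 fold change of iBET against DMSO (x axis) with 95% intervals for the 17 tested ligands and receptors, with Ova in orange and with IC in red, filled where the adjusted p is under 0.05. Tnfsf14 and Havcr2 lie near -2 in both stimulations, while Icosl, Cd40 and Pvr lie above 0 in both.

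In response to IC, 2 of the 17 ligands rose and 0 fell in DMSO, where 1.22% of all genes were called. Under iBET 1 rose and 0 fell, where 0.349% of all genes were called; the ligands are named after their values had been seen. Icam1, the adhesion ligand of LFA-1, rose with IC in DMSO (1.24, SE 0.14, edgeR adjusted p 0.00142) and under iBET (1.33, SE 0.14, edgeR adjusted p 0.00118). Cd274 rose with IC in DMSO (1.04, SE 0.18, edgeR adjusted p 0.0178) and had 0.57 under iBET (SE 0.19, edgeR adjusted p 0.425). Of the processing genes and of the transcription factors, 0 of 18 were called with IC in either arm by edgeR.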

How the data were processed

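RNA was measured in 12 libraries of BMDMs, 3 mice in each of 4 groups. Per the labels and methods, the authors trimmed reads (Trim Galore), aligned them to mm10 (HISAT2) and counted them per gene (featureCounts); versions and strand setting were not given in the sources used here. They deposited counts as whole numbers, and a normalized table (a signal equal to the count over the DESeq2 size factor). Genes were kept by filterByExpr (minimum count 10), scaled by TMM and tested in edgeR 4.0.16 (quasi-likelihood, robust) with 1 term per group, 5 contrasts and Benjamini-Hochberg adjustment; SE is the log2 change over the square root of F, and log2 CPM used a prior count of 2. Exon lengths and positions came from GENCODE vM21 (GRCm38). DESeq2 1.42.0, sva 3.50.0, limma 3.58.1, R 4.3.3 and matplotlib were also used, and the fit was tested on simulated data.

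The 10 genes and all lists were chosen with earlier results of these data known. Named from each list were the 3 called genes with the smallest adjusted p in each iBET comparison; likeness was Pearson r of log2 CPM outside the 10 genes. Groups came from the labels. The labels tie each replicate number to 1 mouse, so libraries are paired: same-mouse libraries of different groups deviated together with a median r of 0.263 over 18 pairs (-0.0725 to 0.542), against -0.134 over 36 other pairs. The main fit had no mouse block, since the methods name none. Its p-values and intervals rest on the spread of libraries within groups of 3 mice, estimated jointly over the 4 groups. They do not use the pairing by mouse. Alternatives were DESeq2, its size factors, other filters, the mouse block, a surrogate variable, compared groups only, Rn45s removed, stricter thresholds, and each library or mouse left out.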

Additional observations from a re-analysis of the deposited data

Results flagged for a closer look

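Ciita was flagged because its CPM moved one way in every mouse in one arm and the other way in the other. With IC its CPM was higher than with Ova in 3 of 3 mice in DMSO and lower in 3 of 3 under iBET. Under iBET its CPM was higher than in DMSO in 3 of 3 mice with Ova and lower in 3 of 3 with IC, but mouse B had 1 count in both Ova libraries, so its higher CPM there comes from library depth alone. The interaction in the unfiltered edgeR fit had an adjusted p of 0.605 (unadjusted p 0.000217), and 0% of all 16759 genes in that fit were called, so the difference did not pass. H2-Aa was flagged for the same reason: it was lower under iBET in 3 of 3 mice with Ova and higher in 3 of 3 with IC, with an interaction of 0.21 (SE 0.53, edgeR adjusted p 1.00).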

How the results depend on the processing

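Of 1056 alternative values of single genes, 942 kept their direction and side of the threshold, 30 lost a call, 1 gained one and 83 turned sign; Cd80 kept its calls in every fit that tested it, and 40 of 40 group levels held in the deposited normalized table. With mouse as the replicate block no call of the 9 genes changed (Cd80 -2.22 with Ova and -1.86 with IC, edgeR adjusted p 0.000139 and 0.000177). Signs turned for H2-Aa with IC in DMSO (-0.029 in DESeq2, -0.0069 and -0.018 with the block in edgeR and DESeq2) and under iBET with Ova (-0.027, -0.023 and -0.10), for H2-Ab1 under iBET with Ova (-0.026, block in DESeq2), for Cd83 under iBET with IC (-0.011 in DESeq2, -0.012 with its size factors, -0.012 with at least 10 counts in every library, -0.0061 and -0.037 with the block in edgeR and DESeq2) and for the Cd74 interaction (0.0067 in DESeq2, 0.029 with 1 surrogate variable). Calls under iBET with Ova went from 3 to 1 with only the compared groups, at adjusted p under 0.01 or at a log2 change of at least 1; with IC from 2 to 1 at the last 2 of these limits and with at least 10 counts in every library, which drops Cd80; those to IC under iBET went from 1 to 0 at adjusted p under 0.01. With 1 library or mouse left out, calls ran from 0 to 1 for IC in DMSO and under iBET, 1 to 3 for iBET with Ova and 1 to 2 for iBET with IC. Leave-one-out values that crossed 0 were, for IC in DMSO, H2-Aa (-0.36 to 0.23), H2-Ab1 (-0.44 to 0.065), H2-Eb1 (-0.22 to 0.39), Cd74 (-0.12 to 0.33), H2-DMa (-0.039 to 0.19) and H2-DMb1 (-0.031 to 0.29). For IC under iBET they were H2-Aa (-0.037 to 0.74), H2-Ab1 (-0.29 to 0.29), Cd74 (-0.19 to 0.36) and H2-DMb1 (-0.017 to 0.29). For iBET with Ova they were H2-Aa (-0.44 to 0.34), H2-Ab1 (-0.17 to 0.34), H2-Eb1 (-0.45 to 0.16) and H2-DMa (-0.12 to 0.28), and with IC H2-Ab1 (-0.0081 to 0.54), H2-Eb1 (-0.069 to 0.25), Cd74 (-0.040 to 0.51) and Cd83 (-0.18 to 0.17). For the interaction they were H2-Aa (-0.062 to 0.72), H2-Ab1 (-0.12 to 0.47), H2-Eb1 (-0.055 to 0.56), Cd74 (-0.29 to 0.26), H2-DMb1 (-0.25 to 0.067), Cd80 (-0.094 to 0.67) and Cd86 (-0.24 to 0.14). Over all genes, calls for IC rose from 140 to 266 in DMSO and from 40 to 103 under iBET in DESeq2, to 315 and 85 with the replicate block in edgeR, to 437 and 185 with it in DESeq2, and to 504 and 130 with 1 surrogate variable. The causes were not tested. Precision was limited for the 6 tested class II genes. Their SE for the iBET change ran from 0.19 to 0.39 with Ova and from 0.18 to 0.36 with IC. What sets this precision was not tested.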
